A study of Mus musculus with 24 samples.

Results

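The 10 genes studied here belong to the circadian clock and its first output layer, and were followed through 24 kidney arrays: Arntl (also called Bmal1), Clock, Npas2, Per1, Per2, Per3, Nr1d1, Nr1d2, Dbp and Ciart. They were chosen by name, as the array probes whose transcript accession maps to one of these symbols. All 10 of 10 had a probe, with 19 probes among 56605 on the array, and all 10 were among the 17736 genes that were bright enough to be tested, out of 22911 named genes. The arrays measured total RNA of whole kidney from male Crl:CD1(ICR) mice, 1 mouse per array. The sham group (n = 6) had vehicle by vein and normal feed. The DKD group (n = 9, for diabetic kidney disease) had 90 mg/kg of alloxan, a toxin of the pancreatic beta cell, by vein 3 days before mice were grouped, and normal feed. The enarodustat group (n = 9, labelled DKD+enarodustat) had the same alloxan dose and feed with 0.01% enarodustat, an oral drug that stabilises hypoxia-inducible factor by blocking its prolyl hydroxylases. The diabetic mice of both groups had been selected to match in blood glucose and body weight, and kidneys were taken 16 days after grouping. The sources used here do not give the hour at which each kidney was taken. As a model, this is chemical loss of beta cells seen early, in a whole organ that mixes many cell types, so that fewer cells of a type and less RNA per cell cannot be told apart.

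The clock is a loop of transcription that runs in nearly every cell and takes about a day. ARNTL pairs with CLOCK or with its relative NPAS2, binds E-boxes in DNA and switches on the Per, Cry, Nr1d and Dbp genes and Ciart. PER and CRY proteins then return to inhibit that pair, and the NR1D proteins (REV-ERB alpha and beta) repress Arntl itself through ROR elements, so that Arntl and its targets peak at opposite times of day. DBP, with TEF and HLF, carries the rhythm onward by binding D-boxes, which NFIL3 occupies as a repressor. In the kidney this clock is known to time sodium and water transport, and feeding times can set the phase of clocks outside the brain.

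Because the members varied together, as described below, the stretches of DNA just before their start sites were read. They are shown for Dbp and Nr1d2, which passed with Arntl in all 3 groups, and for the 3 members whose windows held an E-box or D-box. The windows came from a table of RefSeq promoters (mouse build GRCm38.p6), in which 9 of the 10 genes, all but Per2, were matched (13 windows), and the 250 bases before each start were searched on both strands for 5 motifs. These were the E-box CACGTG, the D-box TTANGTAA, the ROR element core TAGGTCA, the CRE TGACGTCA and the hypoxia response core ACGTG, which also lies inside every E-box. Sequences run 5′ to 3′ on the gene's own strand, and capitals mark E-boxes, or in Per3 D-boxes. The windows are Ciart at chr3:95882229-95882478 (minus strand), Per1 at chr11:69098699-69098948 (plus strand, the first of its 2 starts), Per3 at chr4:151044666-151044915 (minus strand), Dbp at chr7:45704997-45705246 (plus strand) and Nr1d2 at chr14:18239107-18239356 (minus strand).
Ciart: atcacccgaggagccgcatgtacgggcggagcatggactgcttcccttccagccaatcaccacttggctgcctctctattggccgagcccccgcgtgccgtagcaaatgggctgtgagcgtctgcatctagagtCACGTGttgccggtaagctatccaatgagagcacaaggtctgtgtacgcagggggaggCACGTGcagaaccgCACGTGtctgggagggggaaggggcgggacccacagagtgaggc
Per1: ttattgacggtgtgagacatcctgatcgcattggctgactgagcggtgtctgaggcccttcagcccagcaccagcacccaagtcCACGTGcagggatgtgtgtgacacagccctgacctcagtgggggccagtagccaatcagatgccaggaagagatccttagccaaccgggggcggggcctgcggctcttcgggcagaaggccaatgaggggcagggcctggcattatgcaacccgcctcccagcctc
Per3: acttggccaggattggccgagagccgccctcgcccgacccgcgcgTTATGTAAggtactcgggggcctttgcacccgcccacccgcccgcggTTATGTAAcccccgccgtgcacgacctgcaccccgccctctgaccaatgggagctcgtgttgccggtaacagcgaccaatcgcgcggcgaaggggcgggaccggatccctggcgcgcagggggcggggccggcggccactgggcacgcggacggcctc
Dbp: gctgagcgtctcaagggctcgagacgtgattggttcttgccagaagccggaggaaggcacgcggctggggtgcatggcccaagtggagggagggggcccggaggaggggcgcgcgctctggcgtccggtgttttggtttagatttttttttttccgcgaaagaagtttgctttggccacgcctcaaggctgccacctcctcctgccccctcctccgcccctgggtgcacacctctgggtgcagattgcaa
Nr1d2: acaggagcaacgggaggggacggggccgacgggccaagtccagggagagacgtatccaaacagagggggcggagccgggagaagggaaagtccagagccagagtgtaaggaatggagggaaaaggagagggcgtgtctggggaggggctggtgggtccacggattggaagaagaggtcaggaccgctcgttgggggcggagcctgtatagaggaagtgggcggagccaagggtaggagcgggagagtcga
Ciart, a repressor of the ARNTL and CLOCK pair, held 3 E-boxes, whose first bases lie 116, 58 and 44 bases before the start. Per1 held 1 E-box, 166 bases before the start, and its other window none. Per3 held 2 D-boxes, 205 and 158 bases before the start. Dbp, the member most opposed to Arntl over the 24 mice, and Nr1d2 held no E-box, D-box, ROR core or CRE in these windows, which says only that these letters are not in these 250 bases. Over the 9 members with a window, 2 held an E-box, 1 a D-box, 0 the ROR core and 0 the CRE, and 5 held ACGTG. Among 27025 genes with windows of this length, 6.86% held an E-box, 2.44% a D-box, 2.55% the ROR core, 1.77% the CRE and 18.5% ACGTG. These matches are descriptions of sequence and not of binding.

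The 3 slides carried 8 arrays apiece: 2 from sham, 3 from DKD and 3 from enarodustat mice. All sham arrays were in the first row of their slide and all enarodustat arrays in the second. Between 37716 and 44732 spots per array were well above background, no spot was saturated, and arrays of a group correlated at 0.963 to 0.993. The agent left its mark on known targets of hypoxia-inducible factor, 4 of 8 of which rose from DKD to enarodustat, beside 0.716% of all genes, led by the lactate exporter Slc16a3 at 3.03 ± 0.17 (log2, SE; limma, adjusted p = 4.27e-11). Of these, Adm passed barely (adjusted p = 0.0484) and was lost without any of 18 single mice, and Egln3 was lost with slide row as a term. Kidney identity was clear in all groups: the log2 of the summed signals of 6 proximal tubule markers lay between 9.46 and 9.92 on every array. The other marker sums were made in the same way, so the brightest markers weigh most. The 4 endothelial markers summed to 3.89 to 4.19 in sham, 3.74 to 4.02 in DKD and 4.11 to 4.43 in enarodustat mice, and the part of such shifts in the clock genes was not tested. Of 6 markers of the loop, distal tubule and collecting duct, 3 rose and 1 fell both from sham to DKD and from sham to enarodustat. In those comparisons 11.6% and 15.5% of all genes passed. The sums of the 6 markers lay between 7.58 and 8.24. Summed markers of fat (-5.59 to -3.70) and of adrenal tissue (-4.52 to -2.72) were low on every array, and 1 or 2 of the 3 markers of each were above background on no array of a group. The adrenal marker Star, though, was above background on every array. It rose by 0.75 ± 0.24 from sham to enarodustat (limma adjusted p = 0.0356), and DKD minus sham was 0.68 ± 0.24 (adjusted p = 0.0695).

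None of the 10 clock genes passed the test for a difference between groups. With the spread of these mice, this does not show that they were unchanged. Levels here are log2 signal minus the array's 75th percentile, so that 0 is the brightness of that percentile and a step of 1 is a 2-fold ratio. The test was limma across all 17736 genes with 24 arrays in 1 fit, and a gene passed at an adjusted p under 0.05 (Benjamini-Hochberg over all genes). From sham to DKD 0 of 10 clock genes passed, where 11.6% of all genes did (2058). From DKD to enarodustat 0 of 10 passed, against 0.716% of all genes (127), a comparison with so few calls that 0 of 10 is near the background. From sham to enarodustat 0 of 10 passed, against 15.5% (2748). With only 10 genes that varied together, 0 is near the background in all 3 comparisons. At an unadjusted p under 0.05 the counts were 0, 1 and 0 of 10, against 24.8%, 10.9% and 29.7% of all genes. In none of the 3 comparisons did the mice of 2 groups separate without overlap for any clock gene, as they did for 3.4%, 0.147% and 4.94% of all genes. The median absolute log2 difference of the members was 0.23, 0.14 and 0.38 in the 3 comparisons, beside 0.17, 0.10 and 0.19 over all genes, and their signed medians were 0.06, 0.10 and 0.10 beside -0.01, 0.00 and -0.02.

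**Figure D1:**
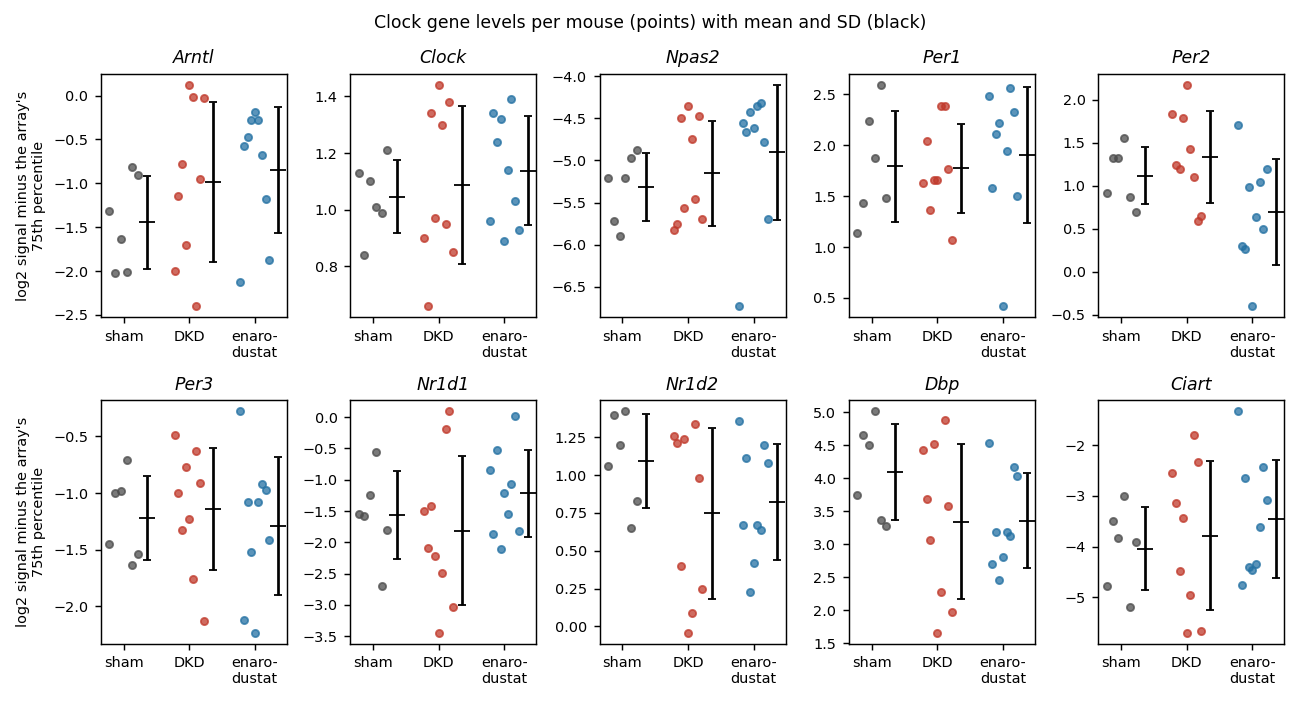
Level of each of the 10 clock genes (vertical axis, log2 signal minus the array's 75th percentile) in every mouse of the sham (n = 6), DKD (n = 9) and enarodustat (n = 9) groups; points are mice, the black cross is the mean and the bar is 1 SD on either side. The groups overlap in all 10 panels, and the DKD points reach from -2.40 to 0.12 for Arntl and from 1.66 to 4.88 for Dbp.

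Arntl, whose protein pairs with CLOCK or NPAS2, had its highest mean in the enarodustat mice by the probe used. That mean was only 0.14 ± 0.34 above DKD (SE, limma adjusted p = 0.954), and another Arntl probe gave -0.11. By the probe used, Arntl ran from -2.02 to -0.81 in sham mice (median -1.47), from -2.40 to 0.12 in DKD mice (median -0.95) and from -2.13 to -0.19 in enarodustat mice (median -0.57). In all, 4 of 9 DKD mice and 6 of 9 enarodustat mice lay above the highest sham mouse, while 1 mouse of each diabetic group lay below the lowest. The means were -1.45 ± 0.53 (SD, n = 6), -0.99 ± 0.91 (n = 9) and -0.85 ± 0.72 (n = 9). The enarodustat mean stood 0.60 ± 0.38 above sham (SE, 1.51-fold, limma adjusted p = 0.316) and the DKD mean 0.46 ± 0.38 above it (adjusted p = 0.51), both within the spread. On the slides taken alone, DKD minus sham was 0.36, 1.28 and -0.27 for Arntl, and enarodustat minus sham 0.61, 1.57 and -0.39. With slide row as a term the enarodustat minus sham difference turned to -0.47.

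Clock, which encodes the usual partner of ARNTL, was the steadiest of the 10. Its level ran from 0.84 to 1.21 in sham, from 0.66 to 1.44 in DKD and from 0.89 to 1.39 in enarodustat mice, and its means of 1.05 ± 0.13, 1.09 ± 0.28 and 1.14 ± 0.19 (SD) differed by at most 0.09 ± 0.12 (SE). The 95% interval of that largest difference, enarodustat minus sham, ran from -0.15 to 0.33. Npas2, whose protein can stand in for CLOCK, was dim: it was well above background in 4 of 6 sham, 4 of 9 DKD and 7 of 9 enarodustat mice. Its level ran from -5.90 to -4.88 in sham, from -5.83 to -4.35 in DKD and from -6.73 to -4.32 in enarodustat mice. Enarodustat minus sham was 0.41 ± 0.33 for Npas2 (adjusted p = 0.439).

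Among the 3 period genes, whose proteins inhibit the ARNTL and CLOCK pair, Per2 came closest to a difference. Per2 ran from 0.70 to 1.56 in sham mice (median 1.12), from 0.59 to 2.17 in DKD mice (median 1.24) and from -0.40 to 1.71 in enarodustat mice (median 0.64). In all, 4 of 9 enarodustat mice lay below the lowest DKD mouse and 8 of 9 below the DKD mean, but 1 enarodustat mouse, at 1.71, stood among the higher DKD mice. The means were 1.11 ± 0.33 in sham, 1.33 ± 0.53 in DKD and 0.69 ± 0.62 in enarodustat mice (SD). Enarodustat minus DKD was -0.64 ± 0.24 (SE, 0.642-fold, 95% interval -1.14 to -0.14), with an unadjusted p of 0.0134 and a limma adjusted p of 0.292, so it did not pass. The difference was -0.66 on slide 1, -1.38 on slide 2 and 0.13 on slide 3, and leaving out each mouse in turn moved it between -0.77 and -0.50. The second Per2 probe gave -0.48 ± 0.14 (adjusted p over all probes 0.202), although the 2 probes followed each other only loosely from mouse to mouse (r = 0.37 over 24 arrays).

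Per1 ran from 1.14 to 2.59 in sham, from 1.07 to 2.38 in DKD and from 0.42 to 2.56 in enarodustat mice. Its largest difference was 0.13 ± 0.25 for enarodustat minus DKD (adjusted p = 0.931), and its interval of -0.39 to 0.66 leaves room for shifts of either sign. Per3 ran from -1.63 to -0.71 in sham, from -2.13 to -0.49 in DKD and from -2.23 to -0.28 in enarodustat mice. Its differences were 0.08 ± 0.27 for DKD minus sham, -0.15 ± 0.24 for enarodustat minus DKD and -0.07 ± 0.27 for enarodustat minus sham. Leaving out single mice moved the Per3 differences between 0.00 and 0.20, between -0.28 and -0.03 and between -0.20 and 0.05, in that order.

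Nr1d1 and Nr1d2 encode the nuclear receptors that repress Arntl. Nr1d1 ran from -2.70 to -0.55 in sham mice (median -1.56), from -3.44 to 0.09 in DKD mice (median -2.09) and from -2.10 to 0.02 in enarodustat mice (median -1.21). The lowest and the highest kidney of all 24 were both DKD mice, 11.6-fold apart, and 4 of 9 DKD mice lay below the lowest enarodustat mouse. Enarodustat minus DKD was 0.60 ± 0.41 (SE, 1.51-fold, adjusted p = 0.68) and DKD minus sham -0.24 ± 0.46 (adjusted p = 0.806). Nr1d2 ran from 0.65 to 1.42 in sham, from -0.04 to 1.34 in DKD and from 0.23 to 1.36 in enarodustat mice. In all, 4 of 9 DKD and 3 of 9 enarodustat mice lay below the lowest sham mouse. DKD minus sham was -0.35 ± 0.23 for Nr1d2 (0.787-fold, adjusted p = 0.374) and enarodustat minus sham -0.27 ± 0.23 (adjusted p = 0.453).

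Dbp, a PAR bZIP activator that is the classic first output of the loop, had the largest difference of the 10 from sham to DKD. It ran from 3.27 to 5.01 in sham mice (median 4.12), from 1.66 to 4.88 in DKD mice (median 3.57) and from 2.45 to 4.53 in enarodustat mice (median 3.18). In all, 4 of 9 DKD mice and 6 of 9 enarodustat mice lay below the lowest sham mouse, and the highest diabetic mice reached into the sham range. The means were 4.09 ± 0.73, 3.34 ± 1.17 and 3.35 ± 0.72 (SD). DKD minus sham was -0.75 ± 0.46 (SE, 0.594-fold, adjusted p = 0.334), enarodustat minus sham -0.74 ± 0.46 (0.601-fold, adjusted p = 0.304) and enarodustat minus DKD 0.02 ± 0.41. DKD minus sham was -0.48, -1.94 and 0.16 on the 3 slides, so slide 3 pointed the other way for Dbp as it did for Arntl. With slide row as a term, enarodustat minus sham turned to 0.62.

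Ciart was above background in 5 of 6 sham, 8 of 9 DKD and 9 of 9 enarodustat mice and varied most. It ran from -5.19 to -3.01 in sham mice (median -3.88), from -5.70 to -1.80 in DKD mice (median -3.43) and from -4.76 to -1.33 in enarodustat mice (median -3.62). The highest and the lowest DKD kidney were 14.9-fold apart. Enarodustat minus sham was 0.59 ± 0.61 for Ciart (adjusted p = 0.57), and the other 2 differences were 0.26 ± 0.61 and 0.33 ± 0.55, all smaller than their standard errors.

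**Figure D2:**
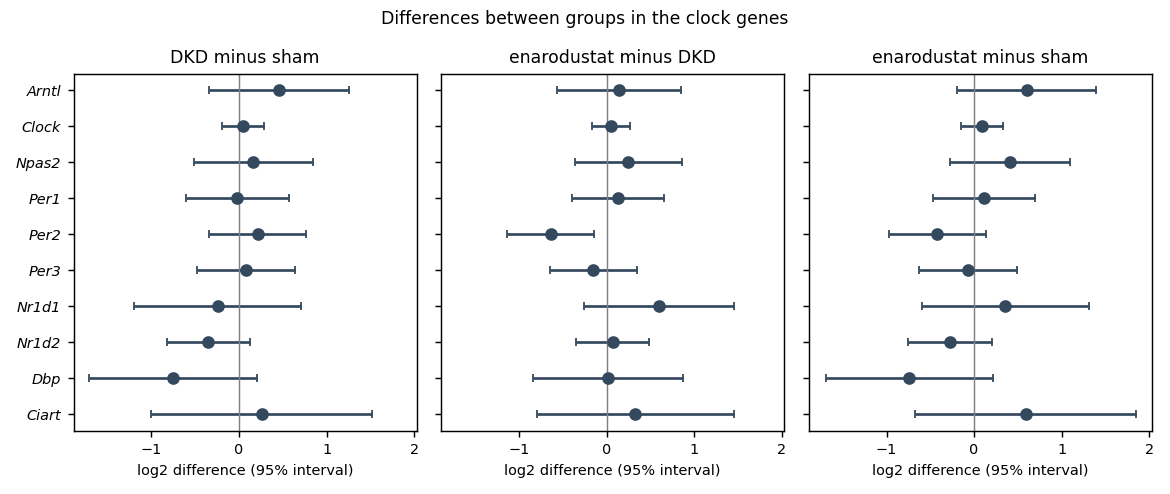
Difference between groups in each clock gene (horizontal axis, log2; points are limma estimates and bars their 95% intervals) in the 3 comparisons named above the panels. All intervals include 0 except that of Per2 for enarodustat minus DKD (-1.14 to -0.14), whose adjusted p was 0.292.

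Mice of a single group differed in these genes more than they did in most genes. The SD between mice of a group, pooled over the 3 groups, was 1.22 for Ciart, 0.92 for Dbp, 0.92 for Nr1d1 and 0.76 for Arntl on the log2 scale, beside a median of 0.29 over all genes tested. These SDs lay at percentiles 99.1, 96.7, 96.6 and 93.6 of all genes. Npas2 (0.66), Per1 (0.56), Per2 (0.53), Per3 (0.53) and Nr1d2 (0.45) followed, and Clock (0.22, percentile 30.5) was the 1 member below the median. The spread was present without diabetes: in sham mice the SD was 0.81 for Ciart (percentile 95.6), 0.73 for Dbp (93.9) and 0.70 for Nr1d1 (93.4). In DKD mice it was 1.47, 1.17 and 1.19, while the median over all genes was 0.20 in sham and 0.31 in DKD mice. No test of a difference in spread was made. Dim genes vary more on arrays, and Npas2 and Ciart were near background on some of them, whereas Dbp, Arntl and Nr1d1 were well above background on all 24.

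**Figure D3:**
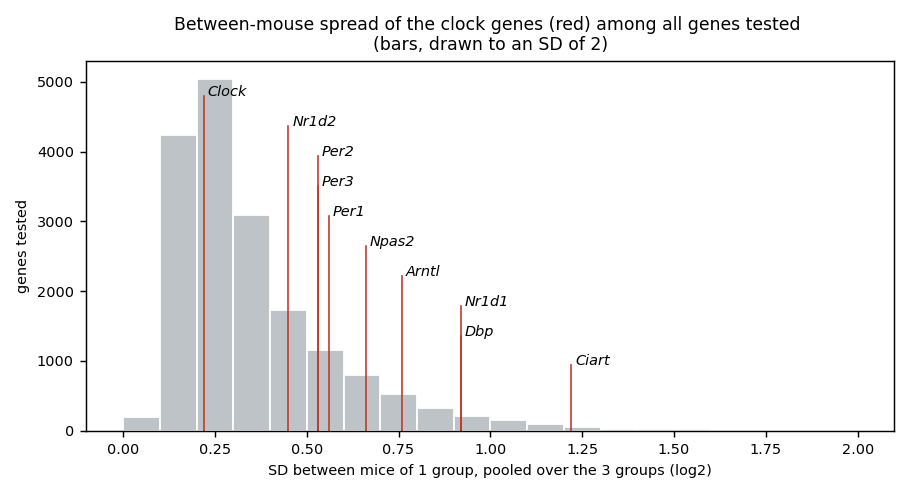
Number of genes tested (grey bars, vertical axis) by the SD of their level between mice of 1 group, pooled over the 3 groups (horizontal axis, log2, drawn to an SD of 2); red lines mark the 10 clock genes. In all 9 of the 10 lie above the median of 0.29, from Nr1d2 at 0.45 to Ciart at 1.22, and Clock lies below it at 0.22.

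This variation was ordered: within each group, mice with high Arntl had low Dbp and low Nr1d2. In the DKD group Arntl was -2.0, -1.14, -0.78, -1.70, 0.12, -0.02, -2.40, -0.95 and -0.03 in replicates 1 to 9, and Dbp was 4.42, 3.68, 3.06, 4.52, 1.66, 2.27, 4.88, 3.57 and 1.97 in the same mice. The 3 mice with the highest Arntl were the 3 with the lowest Dbp, and the mouse with the lowest Arntl had the highest Dbp. In the 6 sham mice Arntl was -1.31, -2.02, -1.63, -2.01, -0.81 and -0.90, and Dbp 3.75, 4.65, 4.50, 5.01, 3.36 and 3.27. In the enarodustat group Arntl was -2.13, -0.57, -0.47, -0.28, -0.19, -0.28, -0.68, -1.18 and -1.87, and Dbp 4.53, 2.70, 3.19, 2.45, 2.81, 3.18, 3.12, 4.17 and 4.03. There the 3 mice with the lowest Arntl held the 3 highest values of Dbp.

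Arntl was set against each of the other 9 members within each group, which made 27 relations, each with an exact two-sided permutation test and Benjamini-Hochberg adjustment over the 27. With 6 sham mice the smallest p that test can give is 0.00278, and with 9 mice it is 5.51e-06. In all 12 relations passed, 11 of them negative. Dbp was opposed to Arntl in all 3 groups, with r = -0.97 in sham (rho -0.89, exact p = 0.00833, adjusted 0.0281), -0.98 in DKD (rho -0.97, exact p = 6.06e-05, adjusted 0.00164) and -0.90 in enarodustat mice (rho -0.77, exact p = 0.00228, adjusted 0.0125). For the rank correlations of Dbp, the exact permutation p was 0.0333, 0.000165 and 0.0214, of which the DKD value passed after adjustment (0.00223) and the others did not (0.09 and 0.09). Without the 2 mice farthest from the median Arntl, r for Dbp was -0.92, -0.98 and -0.82. A slide held only 2 or 3 mice of a group, too few for a value of its own. With slide means removed r for Dbp was -0.98, -0.98 and -0.85. For such values the permutation also swapped mice between slides, though mice of a slide share a removed mean. Its p-values there are thus not exact and are only rough.

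Nr1d2 was also opposed to Arntl, with r = -0.99 in sham (exact permutation p = 0.00278, adjusted 0.0125), -0.93 in DKD (exact p = 0.000135, adjusted 0.00182) and -0.78 in enarodustat mice (exact p = 0.0105, adjusted 0.0281). Its rho was -0.94, -1.0 and -0.75. In DKD mice the rank order of Nr1d2 was the exact reverse of that of Arntl, at the smallest exact p that 9 mice allow (5.51e-06, adjusted 0.000149), while by rank the sham and enarodustat relations did not pass (adjusted 0.09 and 0.09). Without the 2 farthest mice r was -1.0, -0.92 and -0.72. With slide means removed it was -0.95, -0.92 and -0.64, the last no longer passing (adjusted permutation p = 0.107). The enarodustat relation was also lost when background was modelled with limma's normexp in place of the scanner's subtraction (-0.75, adjusted exact p = 0.058).

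Per3 was opposed to Arntl in sham (r = -0.94, exact permutation p = 0.0111, adjusted 0.0281; rho -0.83) and DKD mice (r = -0.85, exact p = 0.00325, adjusted 0.0125; rho -0.85), and had r = -0.57 in enarodustat mice (exact p = 0.109, adjusted 0.173). Ciart was opposed to it in DKD (r = -0.89, exact p = 0.00233, adjusted 0.0125; rho -0.87) and enarodustat mice (r = -0.78, exact p = 0.0115, adjusted 0.0281; rho -0.72), with r = -0.79 in the 6 sham mice (exact p = 0.0694, adjusted 0.117). The sham relation of Per3 was lost with background-modelled values (r = -0.92, adjusted exact p = 0.058) and by rank (adjusted exact p = 0.114). The enarodustat relation of Ciart was lost with slide means removed (r = -0.67, adjusted permutation p = 0.101). It was also lost with background-modelled values (-0.71, adjusted exact p = 0.0643) and by rank (0.0905). By rank, the DKD relations of Per3 and Ciart passed (adjusted exact p = 0.041 and 0.0406). Without the 2 farthest mice r was -0.86 and -0.95 for Per3 in sham and DKD mice, and -0.81 and -0.69 for Ciart in DKD and enarodustat mice.

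Per2 did not follow this order in every group. Its r with Arntl was -0.93 in sham mice (rho -0.89, exact permutation p = 0.0181, adjusted 0.0406), -0.72 in enarodustat mice (exact p = 0.0292, adjusted 0.0605) and -0.05 in DKD mice (exact p = 0.906, adjusted 0.906), and the difference between groups was not tested. DKD replicate 5, with the highest Arntl of its group, also had the highest Per2 (2.17), and without the 2 farthest mice r in DKD mice was -0.63. In sham mice r without the 2 farthest was -0.87. With slide means removed the sham relation missed the threshold (r = -0.89, adjusted permutation p = 0.0525). It also missed it with background-modelled values (-0.91, adjusted exact p = 0.058) and by rank (0.09).

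Npas2 gave the 1 positive relation that passed, r = 0.91 with Arntl in enarodustat mice (exact permutation p = 0.00196, adjusted 0.0125). It rested on the 2 mice of lowest Arntl, since r was 0.48 without them and rho was 0.60 (exact p = 0.0968), and it was lost with background-modelled values (r = 0.64, adjusted exact p = 0.113). Nr1d1 had r = -0.79, -0.66 and -0.21 in the 3 groups, Clock 0.57, 0.47 and 0.50 and Per1 0.23, -0.30 and -0.30, none of which passed. Whether Nr1d1 and its paralog Nr1d2 differ in this was not tested. Both values of a mouse come from 1 array, so they share its scaling.

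**Figure D4:**
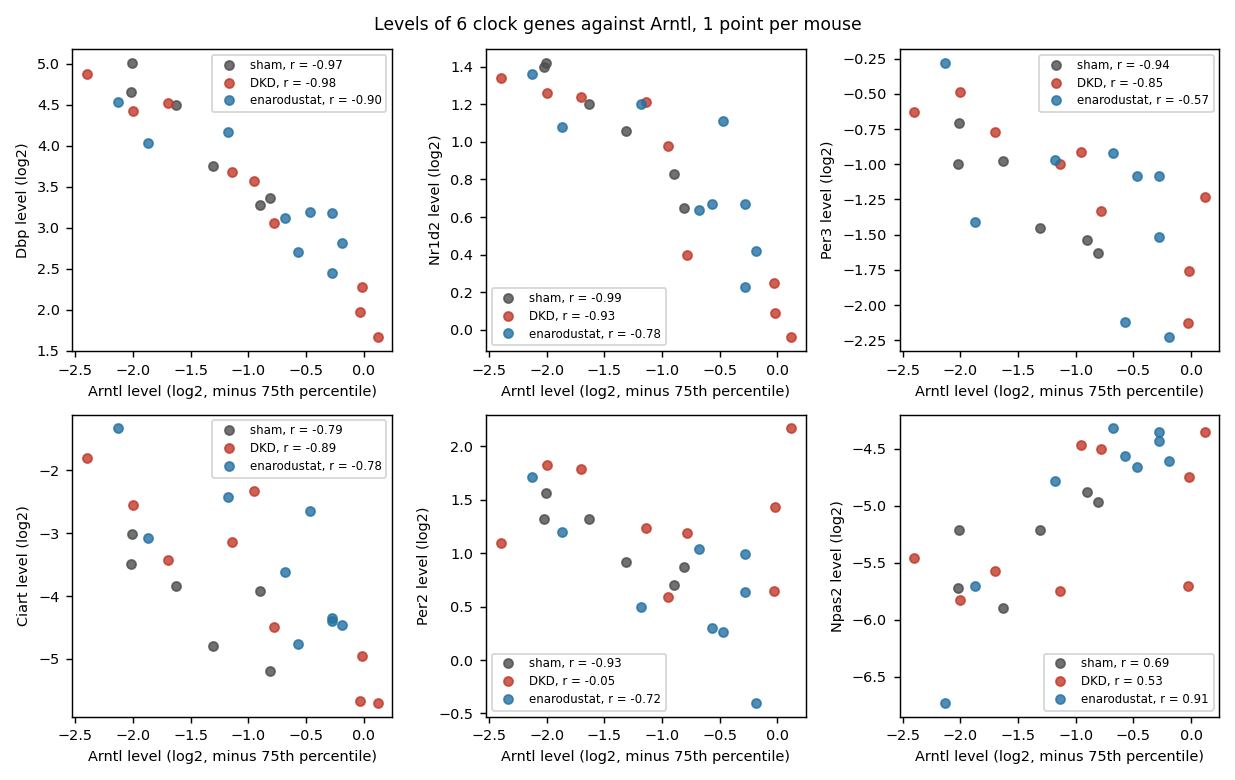
Level of 6 clock genes (vertical axes) against that of Arntl (horizontal axes), both log2 signal minus the array's 75th percentile, with 1 point per mouse, grey for sham, red for DKD and blue for enarodustat. Dbp and Nr1d2 fall along a line in all 3 groups (r between -0.78 and -0.99), while Per2 in DKD mice does not (r = -0.05).

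**Figure D5:**
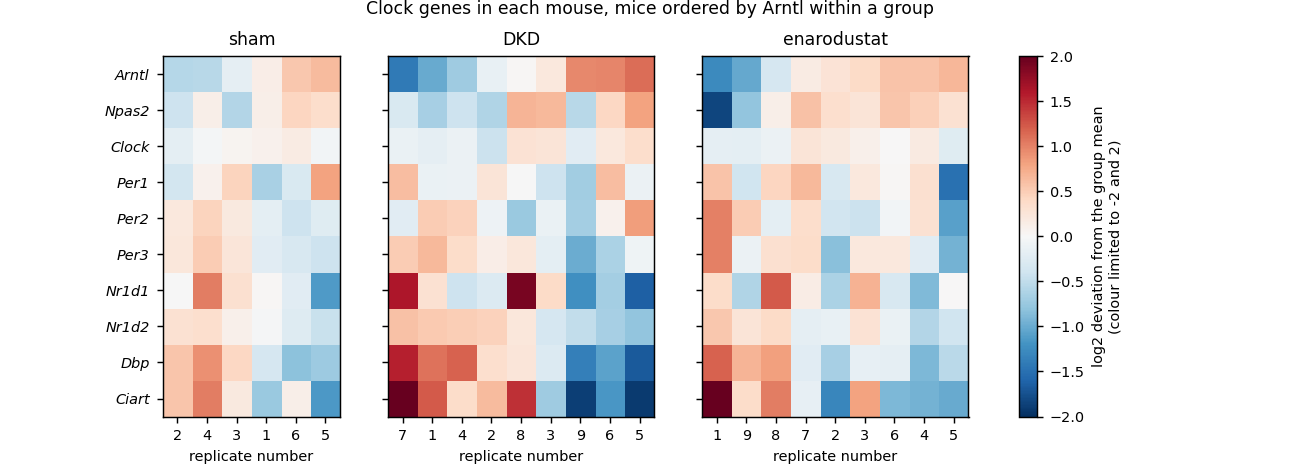
Deviation of each clock gene from its group mean (colour, log2, limited to -2 and 2) in every mouse, with mice of each group ordered from lowest to highest Arntl (left to right, replicate number below). In DKD mice Dbp and Ciart pass from red on the left to blue on the right as Arntl passes from blue to red, and Clock stays pale throughout.

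Second probes of these genes followed the ones used to different degrees. Those of Dbp and Nr1d2 each followed the one used at r = 0.98 over the deviations of 24 arrays, the other Arntl probes at 0.96 and 0.94 and the other Per3 probe at 0.93. The Clock probes (0.48 and 0.55), Ciart probes (0.54) and Per2 probes (0.37) followed each other less closely. Differences between groups in single probes were not called for any of the 19, and for Arntl, enarodustat minus DKD took both signs among its 3 probes (0.14, 0.01 and -0.11).

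Over all 15112 genes that were above background on every array, the 4 genes most opposed to Arntl across the 24 mice were 3 members and Tef. Likeness was the Pearson r of deviations from the group means, given as a description. Ciart and Npas2 were not above background on every array and so were not ranked. From the most opposed on, these were Dbp (r = -0.95), the related PAR bZIP factor Tef (-0.91), Nr1d2 (-0.89) and Per3 (-0.73). Nat8f6 (-0.70), Mcm10 (-0.68), Herpud1 (-0.68) and Carmil1 (-0.68) followed. Wee1, a kinase that delays mitosis and a known E-box target of the clock, was at rank 10 (-0.66). Nr1d1 (-0.55) and Timeless (-0.54) were at ranks 38 and 46. The genes most like Arntl were Rtl6 (0.87), Dtx4 (0.84), the cell cycle inhibitor Cdkn1a (0.79), the vasopressin receptor Avpr1a (0.78), the laminin-binding integrin subunit Itga6 (0.78), Ypel2 (0.78), Tnfaip2 (0.78) and Spry1 (0.75), an inhibitor of receptor tyrosine kinase signalling. Of the further clock genes, Lonrf3 (0.62) and Nfil3 (0.54) varied in the direction of Arntl.

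Since mice of a group lay at different points of this shared order, the groups were also compared with each mouse's Arntl level as a covariate, a choice made after seeing the data. In that fit 1 of 9 members passed in enarodustat minus sham, near the 12.2% of all genes that did. Adjusted for Arntl, Ciart was 1.39 ± 0.35 higher in enarodustat than in sham mice (SE, 2.62-fold, limma adjusted p = 0.0119). Of the 9 enarodustat mice, 6 lay above and 1 below the Arntl range of the sham mice. The estimate thus leans on 1 Arntl slope assumed for all groups, and no such fit held slide row as a term. Leaving out each mouse in turn kept the Ciart difference between 1.25 and 1.60 with adjusted p of 0.00495 to 0.0368. With Dbp as the covariate, itself opposed to Arntl (r = -0.95), it was 1.45 ± 0.31 (adjusted p = 0.00396). With the mean of both Ciart probes it was 0.74 ± 0.32 and did not pass (adjusted p = 0.136), and on the background-modelled values it shrank to 0.39 ± 0.11 (adjusted p = 0.024). The dimmer Ciart probe was above background on 19 of 24 arrays. DKD minus sham for Ciart was 0.87 ± 0.35 in this fit (adjusted p = 0.116), and enarodustat minus DKD 0.52 ± 0.30 (adjusted p = 0.602). No other member passed in any of the 3 comparisons, 10.2% and 0.643% of genes having passed in the other 2. The Per2 difference between enarodustat and DKD was -0.60 ± 0.22 in this fit (limma adjusted p = 0.306). That of Dbp between DKD and sham was -0.23 ± 0.16. Dbp opposes Arntl so closely (r = -0.95) that this covariate was bound to shrink its difference, so the shrinkage is not a result.

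Of 14 further genes of the loop (cryptochromes, ROR receptors, their repressors and the kinases and ligases that act on them), 13 were tested. From sham to DKD 1 rose and 1 fell, from DKD to enarodustat 0 passed, and from sham to enarodustat 1 rose and 1 fell. The 2 calls of 13 lie near the shares of all genes, 11.6% from sham to DKD and 15.5% from sham to enarodustat. The median differences of the 13 were 0.16, -0.07 and -0.17. Bhlhe41 (DEC2), which competes for E-boxes, was at -6.13 ± 0.61 in sham and -5.05 ± 0.65 in DKD mice (SD). DKD minus sham was 1.08 ± 0.34 (SE, limma adjusted p = 0.0383), which is the 1 rise counted above for that comparison. It was well above background in only 1 of 6 sham mice against 8 of 9 DKD and 7 of 9 enarodustat mice. Bhlhe41 thus met the brightness filter only through the diabetic mice. Its sham level is near the floor, so this difference is not a measured ratio and the call carries little weight. The Bhlhe41 call was lost without any 1 of sham 1, 2, 3 or 5 or of DKD 2, 3, 6, 7 or 8 (adjusted p up to 0.105). It was also lost in 5 other settings, among them that with no filter. Enarodustat minus DKD was -0.24 ± 0.30 and enarodustat minus sham 0.84 ± 0.34 (adjusted p = 0.0935). Fbxl21, an F-box protein that acts on cryptochromes, was at -2.54 ± 0.25 in sham and -3.59 ± 0.16 in DKD mice and fell by 1.06 ± 0.27 (adjusted p = 0.0134), with every DKD mouse (highest -3.35) below every sham mouse (lowest -2.85). In the background-modelled values this call was lost. Against sham, the enarodustat mice fell by 0.81 ± 0.27 in Fbxl21 (adjusted p = 0.0472), a call lost without any of 21 single mice, with 1 enarodustat mouse at -1.13 and a median of -3.68. Timeless rose by 0.37 ± 0.10 from sham to enarodustat (adjusted p = 0.015).

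The cryptochromes, partners of PER in repression, did not pass in any comparison. Cry1 was -3.75 ± 0.31 in sham, -3.40 ± 0.57 in DKD and -3.95 ± 0.43 in enarodustat mice, with differences of 0.35 ± 0.24 for DKD minus sham, -0.55 ± 0.21 for enarodustat minus DKD (adjusted p = 0.31) and -0.20 ± 0.24 for enarodustat minus sham. Cry2 was 1.97 ± 0.13, 2.23 ± 0.27 and 1.80 ± 0.35, with differences of 0.25 ± 0.15, -0.43 ± 0.13 (adjusted p = 0.171) and -0.17 ± 0.15. Per2, Per3, Cry1 and Cry2 thus had the same order of means, DKD highest and enarodustat lowest, with none of their differences past the threshold. The second Per3 probe did not keep it, with a DKD mean of -3.99 below the sham mean of -3.90. Other genes, such as the output gene Lonrf3, had this order too. The order was picked out after the values were seen, and its share among all genes was not counted. Nfil3, the D-box repressor, differed by 0.47 ± 0.36, -0.16 ± 0.33 and 0.32 ± 0.36. Bhlhe40 (DEC1) was -0.62 ± 0.21 lower in DKD than in sham mice, just short of the threshold (adjusted p = 0.056), and its other differences were 0.26 ± 0.19 and -0.35 ± 0.21.

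Of 10 further output genes, 0 passed from sham to DKD, 0 from DKD to enarodustat, and 3 fell from sham to enarodustat, with 0 rising, beside 15.5% of all genes passing in that comparison. Those that fell were Tef, by 0.53 ± 0.15 (0.694-fold, adjusted p = 0.0199), its relative Hlf, by 0.46 ± 0.13 (0.729-fold, adjusted p = 0.023), and the deubiquitinase Usp2, by 0.58 ± 0.17 (0.668-fold, adjusted p = 0.0228). Tef ran from 5.59 to 6.24 in sham, from 5.22 to 5.94 in DKD and from 4.96 to 5.94 in enarodustat mice. Their DKD minus sham differences were -0.28 ± 0.15, -0.09 ± 0.13 and -0.29 ± 0.17, and their enarodustat minus DKD differences -0.25 ± 0.14, -0.36 ± 0.12 and -0.30 ± 0.15, none past the threshold. The Tef call was lost without sham 2 or sham 4 (adjusted p up to 0.0584), those of Hlf (up to 0.061) and Usp2 (up to 0.0635) without sham 2, 3 or 4, and all 3 with slide row as a term and with quantile normalization. Tsc22d3, which glucocorticoids and the clock both drive, differed by 0.00 ± 0.21, -0.55 ± 0.19 (adjusted p = 0.24) and -0.56 ± 0.21 (adjusted p = 0.0781).

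Genes through which the renal clock is known to act on salt and water were read in the same fit. Of 10 such genes, 4 rose and 1 fell from sham to DKD, and the same numbers passed from sham to enarodustat, with 0 from DKD to enarodustat, beside 11.6% and 15.5% of all genes. In DKD mice the kinase Sgk1 rose by 1.05 ± 0.20 (2.07-fold, adjusted p = 0.00126), the endothelin precursor Edn1 by 0.95 ± 0.19 (adjusted p = 0.00192), the water channel Aqp2 by 0.91 ± 0.14 (adjusted p = 0.000165) and the vasopressin receptor Avpr2 by 0.57 ± 0.15 (adjusted p = 0.0149). The glycine transporter Slc6a9 fell by 0.74 ± 0.17 (adjusted p = 0.00578). Markers of the cells that hold several of them moved too: in DKD mice Calb1 rose by 0.77 ± 0.13, Slc12a1 rose by 0.41 ± 0.09, Umod fell by 0.49 ± 0.11 and Slc12a3 and Atp6v1g3 did not pass (0.11 ± 0.11 and -0.15 ± 0.19), and Aqp2 is itself such a marker. The part of cell makeup was not tested. These genes also answer to aldosterone, vasopressin and osmolality, whose part was not tested, and the Edn1 call was lost in the background-modelled values. With slide row as a term, the sham to enarodustat calls of Sgk1, Edn1 and Avpr2 were lost, while that of Aqp2 was kept.

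Genes of signals known to set clocks outside the brain were also measured. Of all genes, 11.6% passed from sham to DKD, 0.716% from DKD to enarodustat and 15.5% from sham to enarodustat. Of 9 tested genes of the fed and fasted states, 5 rose and 0 fell from sham to DKD, 3 rose from sham to enarodustat and 0 passed between the diabetic groups. The pyruvate dehydrogenase kinase Pdk4 rose by 1.66 ± 0.34 (adjusted p = 0.0023), the lipase inhibitor Angptl4 by 1.58 ± 0.35 (adjusted p = 0.0046) and Pck1, of glucose production, by 0.79 ± 0.16 (adjusted p = 0.00254) from sham to DKD. Of 10 glucocorticoid-responsive genes, which include Per1, Sgk1 and Tsc22d3 named above, 2 rose and 1 fell from sham to DKD. From sham to enarodustat, too, 2 rose and 1 fell. Mt2 rose by 1.03 ± 0.25 in DKD (adjusted p = 0.00791), and Fkbp5, a common readout of that receptor, was -0.52 ± 0.19 lower in DKD (adjusted p = 0.0735) and fell by 0.71 ± 0.19 from sham to enarodustat (adjusted p = 0.0117), a call lost with slide row as a term. Of 8 heat and cold responsive genes, 3 fell from sham to DKD and 4 from sham to enarodustat, with 0 rising. The chaperone genes Hsp90aa1 (-0.87 ± 0.12, adjusted p = 8.37e-05) and Hsph1 (-0.81 ± 0.15, adjusted p = 0.00109) led them in DKD. With slide row as a term, the sham to enarodustat calls of Pdk4, Angptl4, Sgk1 and Mt2 were lost too. So were those of Hsph1 and the chaperone genes Hspa8 and Dnajb1, while that of Hsp90aa1 was kept. The part of these signals in the clock genes was not tested.

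Because the subunits of hypoxia-inducible factor belong to the same bHLH-PAS protein family as ARNTL, CLOCK and NPAS2, their relatives were read alongside. Of 10 tested, 1 rose from sham to DKD, near the 11.6% of all genes that passed there. From DKD to enarodustat and from sham to enarodustat 0 passed, beside 0.716% and 15.5% of all genes. The gene that rose was Hif1a, by 0.29 ± 0.07 (limma adjusted p = 0.00942), a call lost when arrays were scaled to the median of bright probes.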

How the data were processed

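Total RNA of 24 kidneys, 1 mouse each, was labelled with Cy3 and hybridised to 1-colour Agilent arrays. The processed intensity of each spot was made by the authors with Feature Extraction (12.1.1.1 per the file headers, 11.5.1.1 per the submitters' processing notes), which subtracts background; a log2 value table was also deposited. Here log2 intensity minus each array's 75th percentile was used. Spots of a probe were averaged, a gene was its probe with the highest mean signal, and a gene was tested if 6 or more of the 24 arrays had it well above background. Probes were named through RefSeq (GRCm38.p6), 32994 of 56605 with a symbol. Groups were compared with limma 3.58.1 in R 4.3.3, with group alone as a term, and checked on simulated data. Correlations within groups used exact permutation tests in Python 3.11.15. P-values measure the spread between these mice. Members and lists were chosen with earlier results of these data known. Named were all members, 9 of 10 fixed clock genes, up to 4 passing genes per other list and comparison, and the 8 genes most and 8 least like Arntl. Wee1, Timeless, Lonrf3, Nfil3 and Nr1d1 were named by likeness, and Fkbp5 by change, after their values were seen. Some genes within this rule are not reported here. Alternatives covered background correction, scaling, filters, probes, slide, slide row, weights and single mice.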

Additional observations from a re-analysis of the deposited data

Results flagged for a closer look

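In 57 combinations of a gene (the 10 members and 9 fixed clock genes) and a group, 2 had a mouse set apart from the others by its gap relative to the group's range, where chance alone gives about 1 in 20. Per1 in enarodustat replicate 5 was 0.42, and the next lowest mouse of that group was at 1.5, a gap of 0.51 of the range. Cry1 in sham replicate 1 was -4.35, with the next lowest mouse at -3.79, a gap of 0.70 of the range.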

How the results depend on the processing

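No clock gene passed in 125 of 126 alternatives of the 3 comparisons, and the exception was 1 (Ciart), with Arntl as a covariate. Each slide alone called at most 36 of all genes, so its 0 says little. Over the other settings the genes passing of all tested ranged from 1461 to 2872 (DKD minus sham; 2058 reported), from 20 to 177 (enarodustat minus DKD; 127) and from 889 to 5119 (enarodustat minus sham; 2748), the lowest of the last 2 with slide row as a term. The further loop genes passing ranged from 0 to 6 in DKD minus sham and in enarodustat minus sham, and the output genes from 0 to 5 in the latter. With the replicate block, too, 0 clock genes passed in each comparison. No label says that the replicate numbers pair mice, and not every same-numbered pair of different groups correlated above 0.1 (median 0.108, lowest -0.408, against a median of -0.00301 for different numbers). Mice on the same slide had a median of 0.197, against -0.0974 on different slides. Of 27 relations with Arntl, 12 passed in the reported values and 7 with background-modelled values (normexp, offset 50). The 7, which also passed in the reported values, were Dbp in all 3 groups, Nr1d2 in sham and DKD mice, and Per3 and Ciart in DKD mice. With slide means removed 9 passed, of which 8 were negative. That permutation swapped mice between slides, which removing slide means does not allow, so this count is only rough. Single-gene differences and correlations kept their direction and side of the threshold in 3677 alternatives, missed it in 270, crossed it in 14 and changed sign in 104, and the cause was not tested. Signs that changed were mostly of small differences. With array weights, DKD minus sham gave Per1 0.16 and Tsc22d3 0.03, while enarodustat minus DKD gave Dbp -0.14, and enarodustat minus sham gave Per3 0.06. In the deposited log2 table, DKD minus sham gave Hlf 0.01, Per1 0.02 and Tsc22d3 0.10. With Arntl as a covariate, DKD minus sham gave Clock -0.02, Npas2 -0.11, Nr1d1 0.06, Per1 0.05 and Tsc22d3 0.06, while enarodustat minus sham gave Nr1d2 0.04 and Per3 0.24. With the mean of all probes, DKD minus sham gave Per3 0.00, while enarodustat minus DKD gave Clock -0.08 and Dbp -0.02, and enarodustat minus sham gave Clock -0.05. With scaling to the median of bright probes, DKD minus sham gave Clock 0.00. With background-modelled values (normexp), DKD minus sham gave Npas2 -0.02 and Tsc22d3 0.03. With quantile normalization, DKD minus sham gave Per1 0.03 and Tsc22d3 0.08. With the replicate block, DKD minus sham gave Tsc22d3 0.05. On slide 1 alone, DKD minus sham gave Clock -0.02, Hlf 0.04, Per1 0.39 and Tsc22d3 0.24, while enarodustat minus DKD gave Bhlhe40 -0.10 and Dbp -0.24, and enarodustat minus sham gave Per3 0.06. On slide 2 alone, DKD minus sham gave Ciart -1.27, Per3 -0.41 and Tsc22d3 0.13, while enarodustat minus DKD gave Bhlhe40 -0.05, Clock -0.12, Dbp 0.00 and Per1 -0.37, and enarodustat minus sham gave Bhlhe41 -0.16, Ciart -0.98, Nr1d1 -0.72 and Per1 -0.53. On slide 3 alone, DKD minus sham gave Arntl -0.27, Clock -0.04, Cry1 -0.26, Dbp 0.16, Nfil3 -0.10, Npas2 -0.29, Nr1d1 1.20 and Nr1d2 0.12, while enarodustat minus DKD gave Arntl -0.12, Nfil3 0.23, Per2 0.13, Per3 0.12 and Usp2 0.00, and enarodustat minus sham gave Arntl -0.39, Dbp 0.46, Npas2 -0.01, Nr1d2 0.23, Per2 0.13 and Per3 0.49. With slide row as a term, DKD minus sham gave Nr1d1 0.01 and Per1 0.06, while enarodustat minus DKD gave Arntl -0.57, Clock -0.03, Per3 0.45 and Tef 0.01, and enarodustat minus sham gave Arntl -0.47, Clock -0.02, Cry2 0.05, Dbp 0.62, Nfil3 -0.77, Nr1d2 0.48 and Per3 0.83. For correlations with Arntl, Npas2 in sham mice became -0.47 with normexp, and Nr1d1 in enarodustat mice became 0.10 with slide means removed. Leaving out single mice changed the sign of Arntl in enarodustat minus DKD (-0.04 to 0.30), Clock in DKD minus sham (0.00 to 0.09), Clock in enarodustat minus DKD (0.00 to 0.09), Dbp in enarodustat minus DKD (-0.19 to 0.21), Nr1d2 in enarodustat minus DKD (-0.03 to 0.14), Per1 in DKD minus sham (-0.15 to 0.14), Per1 in enarodustat minus sham (-0.02 to 0.30), Per3 in DKD minus sham (0.00 to 0.20), Per3 in enarodustat minus sham (-0.20 to 0.05) and Tsc22d3 in DKD minus sham (-0.08 to 0.09).

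Sham and enarodustat arrays never share a slide row, so row and group are tied in that comparison except through DKD. The deposited table holds 8 of the 10 members (not Npas2 and Ciart). Normexp on mean signals could not be run, because the scanner files used here have median but no mean signals. The number of arrays and the brightness of Npas2, Ciart and Bhlhe41, near background on some arrays, limit the precision.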
